A study of Mus musculus with 2 samples.

Results

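Of 21938 mouse protein-coding genes, 6601 had CpG-poor promoters throughout, and 422 of these (6.39%, 95% Wilson interval 5.83 to 7.01) carried a peak of open chromatin over a promoter in both libraries of hematopoietic stem cells. The 422 genes were chosen by sequence and by the peak calls. Every annotated transcription start site (TSS) of the gene had to have an observed to expected CpG ratio under 0.3 in the window 1000 bp either side, and at least 1 of these windows had to overlap an interval of each library's thresholded peak list by at least 1 bp. The peak calls chose the members, so their peak signal and width are given as descriptions and without tests. Over all protein-coding genes the share open in both libraries was 42.5% (9329 genes), and among the 15337 genes that are not CpG-poor it was 58.1% (57.3 to 58.9). The members were 4.52% of all open genes.

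The assay was ATAC-seq, where the Tn5 transposase places sequencing adapters in DNA that nucleosomes leave free. The cells were primary hematopoietic stem cells, 50000 per library, from male mice of strain C57BL/6J in early adulthood (5 to 6 weeks), with no treatment or engineered allele named. There was 1 group with 2 biological replicates. The labels give them the same donor identifier, so they may not be separate animals, and how the cells were purified is not stated there. Sequencers are named for replicate 1 alone (2 models), so a batch difference between the libraries cannot be examined. Replicate 1 gave 25141 thresholded intervals and replicate 2 gave 24495. Of 12 marker genes of hematopoietic stem cells, 6 (Cd34, Gata2, Hlf, Kit, Meis1 and Runx1) had a promoter peak in both thresholded lists and 11 in both less strict lists. Of 17 markers of red, myeloid, lymphoid, mast and endothelial cells, 1 (Cdh5) had a promoter peak in both thresholded lists, and 8 did in both less strict lists.

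In mammals, CpG dinucleotides are lost by mutation where they are methylated in the germ line, and they persist in CpG islands, which cover the promoters of most housekeeping and many developmental genes. Island promoters tend to be free of nucleosomes in many cell types. CpG-poor promoters belong mostly to genes used in few tissues, and their opening usually depends on factors present in those cells. In blood, such factors include PU.1 and other ETS family proteins, RUNX1, GATA proteins and the interferon regulatory factors. NF-Y, a trimer that reads the CCAAT box, is found in most cell types.

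The sequences under the members' summits show the motifs that the results below count. Each is the part of the window 50 bp either side of the replicate 1 summit that lies outside annotated exons, read from the mm10 genome and written 5′ to 3′ on the strand of the gene. The first set holds members of the blood cell lists with the general ETS pattern ACTTCCT, or its longer PU.1 form GAGGAAGT, in capitals on either strand. Was encodes the actin regulator lost in Wiskott-Aldrich syndrome, Inpp5d the inositol phosphatase SHIP1, Gimap5 a GTPase needed for lymphocyte survival, and Spn the leukocyte sialoglycoprotein CD43.
Was, chrX:8090499-8090548, minus strand: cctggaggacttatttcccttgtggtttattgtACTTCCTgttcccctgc
Inpp5d, chr1:87620264-87620311, plus strand: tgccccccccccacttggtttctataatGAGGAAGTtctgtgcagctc
Gimap5, chr6:48746069-48746169, plus strand: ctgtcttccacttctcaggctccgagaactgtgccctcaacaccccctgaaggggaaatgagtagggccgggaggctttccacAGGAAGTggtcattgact
Spn, chr7:127137824-127137898, minus strand: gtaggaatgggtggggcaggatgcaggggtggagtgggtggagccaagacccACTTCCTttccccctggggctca

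The PU.1 form also stood at strong members outside those lists. Trim12c belongs to the tripartite motif family, many of whose members restrict viruses, and Traf3ip3 encodes a TRAF3-interacting protein of lymphocytes.
Trim12c, chr7:104353392-104353492, minus strand: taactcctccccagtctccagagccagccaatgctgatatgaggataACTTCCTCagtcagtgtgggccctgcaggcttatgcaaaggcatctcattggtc
Traf3ip3, chr1:193201548-193201605, minus strand: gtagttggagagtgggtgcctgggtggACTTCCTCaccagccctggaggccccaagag

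Some interferon genes showed the interferon-stimulated response element (ISRE), searched as a pair of GAAA repeats separated by 2 bases, in capitals. It was in 5 of 19 summits of the interferon and GTPase families, and windows that held it are shown. Oas1c is a relative of the oligoadenylate synthetases that sense double-stranded RNA, Ifit1 encodes a protein that binds foreign RNA ends, and Ifi204 belongs to the p200 family of nucleic acid sensors. The Ifit1 window held the pattern at 2 places and was shared with its neighbour Ifit1bl2.
Oas1c, chr5:120812532-120812632, minus strand: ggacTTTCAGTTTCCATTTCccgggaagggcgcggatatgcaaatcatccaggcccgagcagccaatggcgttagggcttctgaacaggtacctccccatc
Ifit1, chr19:34640744-34640839, plus strand: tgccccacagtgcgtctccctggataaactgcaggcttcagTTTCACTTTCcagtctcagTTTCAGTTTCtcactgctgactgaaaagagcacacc
Ifi204, chr1:173766983-173767083, minus strand: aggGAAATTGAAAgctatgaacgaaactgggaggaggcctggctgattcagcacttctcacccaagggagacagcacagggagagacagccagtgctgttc

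Some zinc finger genes (8 of 17 summits) carried the NF-Y box CCAAT, or ATTGG on the other strand, in capitals. Most genes of this class encode DNA-binding proteins that silence transposable elements.
Zfp950, chr19:61140841-61140918, minus strand: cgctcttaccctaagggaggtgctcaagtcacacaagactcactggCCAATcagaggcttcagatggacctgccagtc
Zfp677, chr17:21383661-21383747, plus strand: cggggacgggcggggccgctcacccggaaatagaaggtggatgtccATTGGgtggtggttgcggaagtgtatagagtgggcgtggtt
Zfp825, chr13:74493993-74494049, minus strand: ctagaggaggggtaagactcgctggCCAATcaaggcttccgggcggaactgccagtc

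The RUNX pattern TGTGGTT, in capitals, is shown at Gm20715, an unnamed gene model that held it outside exons.
Gm20715, chr7:6410191-6410276, plus strand: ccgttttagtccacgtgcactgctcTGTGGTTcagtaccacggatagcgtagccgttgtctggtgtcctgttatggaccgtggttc

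The share of open genes climbed steadily with the CpG ratio up to about 0.6, and the members sat at its upper end within the CpG-poor class. It was 1.46% (13 of 892 genes) below a ratio of 0.1, 3.38% (110 of 3253) from 0.1 to 0.2 and 12.2% (299 of 2456) from 0.2 to 0.3. Just above the threshold, from 0.3 to 0.4, it was 25.6%, and from 0.6 to 0.8 it was 66.0%. The Wilson intervals of these classes do not overlap. The 5 members just inside the threshold were Rasl12, Zfp457, Zfp677, Zfp97 and Ushbp1, with ratios from 0.2995 to just under 0.3 and mean signal percentiles from 37.2 to 99.6. The 5 open genes just outside, Gm15446, Siah3, Bdh2, Dock2 and Zfp729a, had ratios from 0.3002 to 0.3015 and percentiles from 32.9 to 97.7, so the threshold separated genes with similar peaks. Members also had more GC than CpG-poor genes without a peak, with a median of 47.8% against 43.2% in the TSS window. Among CpG-poor genes 0.43% were open below 35% GC and 12.1% at 50% GC or more; olfactory, vomeronasal and taste receptor genes made up 567 of the 701 genes in the lowest class and 10 of the 1194 in the highest. Without those receptor genes 414 of 5141 CpG-poor genes were open (8.05%).

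**Figure D1:**
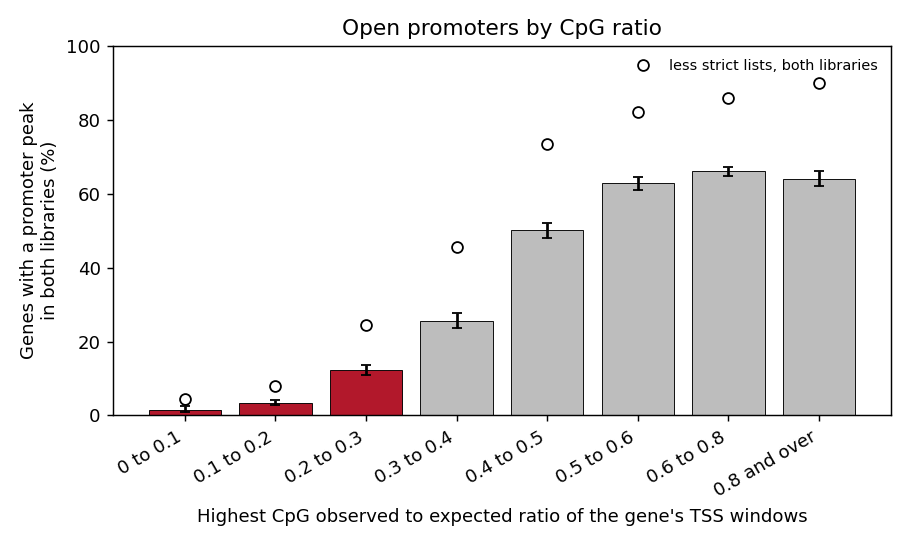
Share of protein-coding genes with a promoter peak in both libraries (vertical axis, %) by the highest CpG observed to expected ratio of their TSS windows (horizontal axis). Red bars are CpG-poor genes and grey bars other genes in the thresholded lists, error bars are 95% Wilson intervals and circles show the less strict lists; the share goes from 1.46% in the lowest class to 66.0% at 0.6 to 0.8.

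Most CpG-poor genes with a thresholded peak in 1 library alone had a less strict peak in the other. Replicate 1 had 515 open CpG-poor genes and replicate 2 had 507, and 81.9% and 83.2% of them were open in the other library, against 90.4% and 94.0% for genes that are not CpG-poor. Peaks of 93 genes were in replicate 1 alone and those of 85 genes in replicate 2 alone. Of these 178 genes, 162 (91.0%) had one in the other library's less strict list. Their thresholded peaks were weaker than the members', with median signal values of 7.18 in replicate 1 and 8.35 in replicate 2. The remaining 6001 CpG-poor genes had no thresholded promoter peak, and 5406 of them (90.1%) had none in either less strict list. Where those genes did have a less strict peak, its median signal value was 4.58 in replicate 1 and 5.30 in replicate 2 and its median width 289 and 320 bp. With the less strict lists in both libraries 906 CpG-poor genes were open, 13.7% of the class. The lists do not give the number of reads, and a gene without a peak is one where none was called at that threshold.

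The members' peaks were somewhat weaker and narrower than those of other open promoters, and in percentiles they spanned almost the whole of both lists. The signal value is the enrichment that the authors' peak caller assigned to a peak. Its median over members was 9.14 in replicate 1 (quartiles 7.52 and 11.6, range 4.38 to 24.4) and 10.3 in replicate 2 (8.36 and 12.8, range 4.44 to 24.0). For the 8907 other open genes the medians were 10.3 and 10.9, and over each whole list they were 8.57 and 9.64. In percentiles within each list, averaged over the libraries, the median member stood at 57.9 and the median other open gene at 68.3. Median widths were 549.5 and 561 bp for members, 608 and 634 bp for other open genes, and 473 and 494 bp over the whole lists. Members were above the 90th percentile in 17.3% of cases in replicate 1 and 18.2% in replicate 2, close to the 20.4% and 17.4% of other open genes, whereas 5.92% and 8.29% of members lay below the 10th percentile against 2.99% and 5.61%. Over 406 distinct peak pairs log2 signal values were alike between libraries (Pearson 0.88, Spearman 0.87); these are correlations across genes within the same 2 libraries, and genes are not independent replicates.

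**Figure D2:**
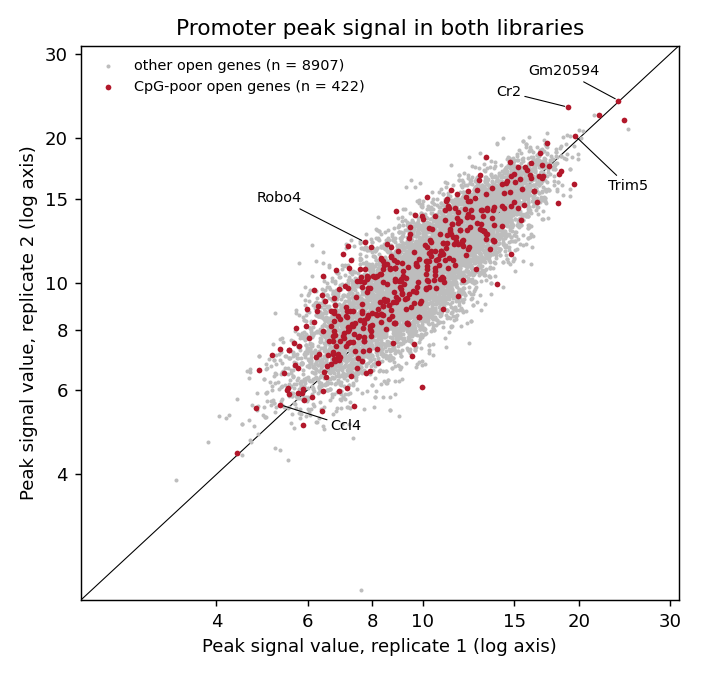
Promoter peak signal value in replicate 1 (horizontal, log axis) and replicate 2 (vertical, log axis) for the 422 members (red) and the 8907 other open genes (grey); each point is a gene and the line marks equal values. Members run along the whole cloud, from Ccl4 at 5.31 and 5.59 to Cr2 at 19.1 and 23.2.

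The strongest members were zinc finger and tripartite motif genes, unnamed gene models and a few leukocyte genes. The 15 with the highest mean percentile had signal values from 16.2 to 24.4 in replicate 1 and from 16.5 to 24.0 in replicate 2, and in 14 of them the summit lay within 200 bp of a TSS. Cr2, the complement receptor of B cells, had 19.1 and 23.2 (chr1:195176353-195176956). Bank1, a scaffold protein of B cell receptor signalling, had 16.9 and 16.5. Nckap1l, the blood form of a subunit of the WAVE actin complex, had 16.2 and 17.7 (chr15:103453493-103454179). Rgs18, a regulator of G protein signalling in platelets and their precursors, had 17.1 and 16.7 in a TSS window of only 30.5% GC. Trim5 (19.7 and 20.3) and Trim12c (18.3 and 16.8) encode tripartite motif proteins and lie in 1 cluster on chromosome 7. Zfp97 (17.3 and 19.6), Zfp950 (16.7 and 16.7) and Zc4h2 (17.5 and 17.5) encode zinc finger proteins. The other 6 were the gene models Gm20594, Gm5141, 6720489N17Rik, Gm45871, 2010315B03Rik and 5430403G16Rik, and RefSeq names the product of Gm5141 as a zinc finger protein. The lowest mean percentile among the 15 was 98.6, so all of them stood near the top of both lists.

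Some strong peaks lay on repeated sequence. In 42 of the 422 members (9.95%) the 31 bases at the summit occurred more than once in the genome, and among the 15 strongest this held for Gm5141, Trim5, Zfp97 and 5430403G16Rik. The summit window of Gm20594, which RefSeq names as similar to a mitochondrial ribosomal RNA, matched the mitochondrial genome at 97 of its 101 bases, and no other member reached 90. Its signal values of 23.8 and 24.0 therefore sit on a nuclear copy of mitochondrial sequence; how reads on such copies were handled is not given in the sources used here, and the part this plays in the value was not tested.

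The weakest members were Akna (4.38 and 4.44), Gm20661 (4.77 and 5.50), Ccl4 (5.31 and 5.59), Dio2 (5.53 and 5.88) and A230072I06Rik (5.48 and 6.00). Ccl4 is an inflammatory chemokine, Dio2 the deiodinase that activates thyroid hormone, and Akna a protein with an AT-hook. The summits of Dio2 and A230072I06Rik lay 545 bp upstream and 937 bp downstream of the TSS. With members ranked by mean percentile into 4 strength groups of equal size, the share with a summit over 500 bp from every TSS was 10.4% in the strongest group and 24.5% in the weakest, and the share whose peak spanned a TSS was 84.0% against 69.8%.

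Most member peaks lay at the TSS itself, though a larger share lay far from it than at other open promoters. The median summit distance was 67 bp in members and 65 bp in other open genes. It was taken to the nearest of all TSSs of a gene, and other open genes had more TSSs (median 5 against 3). The summit was within 100 bp of a TSS in 61.8% of members (57.1 to 66.4) and 65.7% of other open genes. It was over 500 bp away in 16.4% (13.1 to 20.2) against 7.44%, and the peak spanned a TSS in 78.0% against 89.2%. Summits lay upstream of the nearest TSS in 68.0% of members and 78.2% of other open genes. The peak touched the window of the most 5′ TSS in 83.4% of members; in the others it lay at an internal TSS, as in Cd3d, where the summit was 4827 bp downstream of the most 5′ TSS, and in Cdh5, where it was 9383 bp downstream. Such a peak cannot be told apart from an enhancer inside the gene. Few member peaks touched the TSS window of another gene, 8.29% against 25.3% for other open genes. A window of a gene that is not CpG-poor was touched in 11 members (2.61%) against 25.1% of other open genes. The rule itself favours this contrast, because windows of close start sites overlap and a member's windows must all be CpG-poor. The members had 410 distinct replicate 1 peaks, and 23 members shared theirs with another member, such as Igtp and Irgm2, whose start sites lie side by side on the same strand. A distal peak present in both libraries lay within 50 kb of 54.0% of members (49.3 to 58.7), 25.3% of CpG-poor genes without a peak and 51.9% of other open genes. Among CpG-poor genes with a peak in 1 library this share was 60.7% (108 of 178). Any TSS of a gene counted, and members had a median of 3 TSSs against 2 in CpG-poor genes without a peak.

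The functions of the members were weighted toward leukocytes and innate immunity, and few genes of the lists for other organs were open. The lists and families were chosen with earlier results of these data known, so their counts describe the genes and carry no test; the share to set beside each is the 6.39% of all CpG-poor genes. Taken over the 9 blood cell lists, 47 of 182 CpG-poor genes were open (25.8%, 20.01 to 32.6). The lists for endothelium and stroma, liver, brain, muscle, skin and gut were also pooled, without genes that a blood list holds. There it was 1 of 59 (1.69%, 0.2998 to 8.996). The endothelial and stromal list taken whole had 2 of 7 open (28.6%, 8.22 to 64.1), Robo4 and Cdh5, and the other organ lists had none. With the less strict lists the pooled share was 16.9%, above the 13.7% of all CpG-poor genes there, whereas the blood lists stood at 50.5%.

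**Figure D3:**
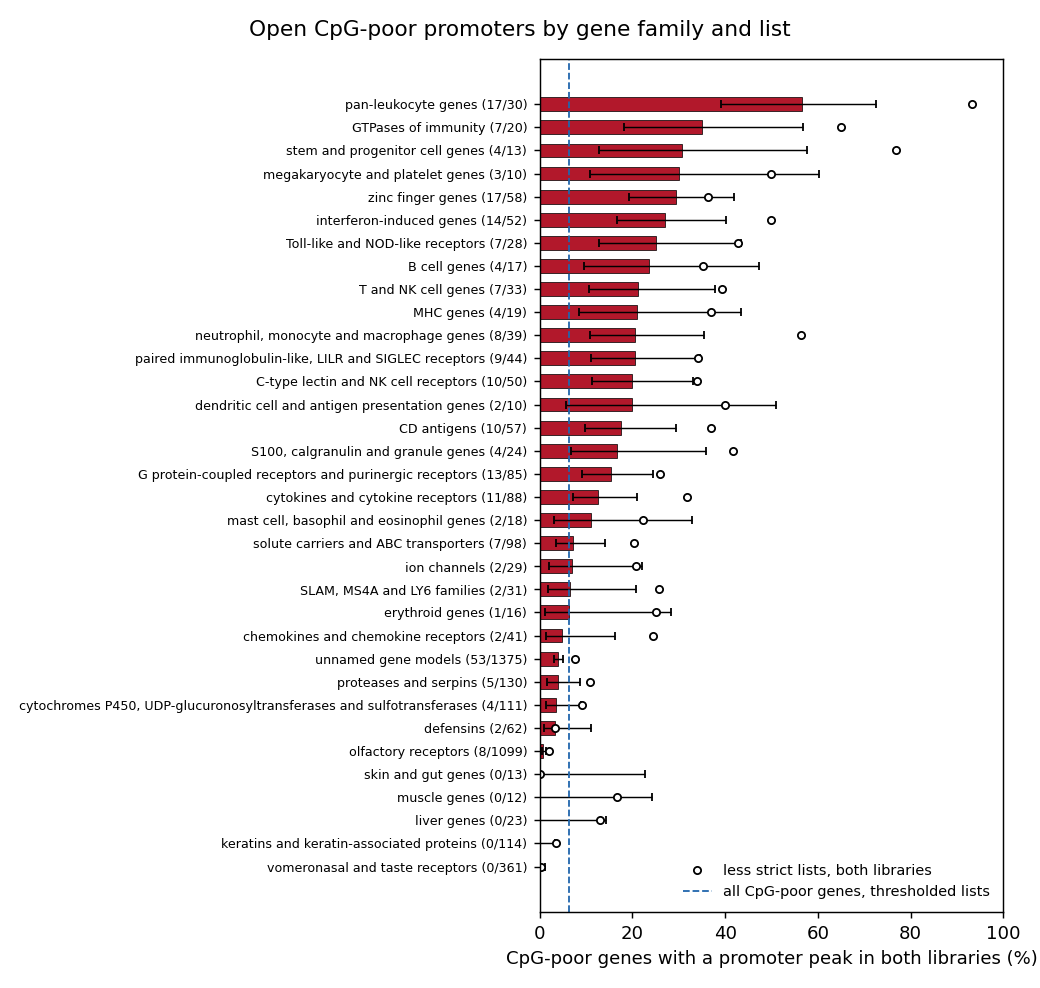
Share of CpG-poor genes with a promoter peak in both libraries (horizontal axis, %) in each family or list with at least 10 CpG-poor genes (vertical axis; open and CpG-poor gene numbers in brackets). Bars are the thresholded lists with 95% Wilson intervals, circles the less strict lists, and the dashed line the 6.39% of all CpG-poor genes; pan-leukocyte genes stand highest at 56.7%.

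Genes that most leukocytes use had the highest share. Of 30 CpG-poor pan-leukocyte genes, 17 were open (56.7%, 39.2 to 72.6), 6 were open in 1 library, and 28 were open in both less strict lists. Nckap1l led them. Itgal, the alpha chain of the integrin LFA-1, had signal values of 13.1 and 13.8. Myo1f, a class I myosin, had 11.3 and 13.0, and Was had 10.3 and 11.5. The others ran down to Itgb2, the beta chain of the same integrin (5.65 and 7.49), and Vav1, a guanine nucleotide exchange factor of leukocyte signalling (5.91 and 5.71). Their peaks were thus of middling strength, with a median mean percentile of 51.3 against the 57.9 of all members. Aif1, Cd48 and Gpsm3 were among the 7 without a thresholded peak. Of its 34 genes that are not CpG-poor 24 were open, beside 58.1% of all genes that are not CpG-poor.

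Interferon and cell-autonomous defence genes formed the second group. Of 52 CpG-poor interferon-induced genes 14 were open (26.9%, 16.8 to 40.3), led by Oas1c (10.95 and 12.1), Ifi35 (10.2 and 11.9) and Ifi27 (8.98 and 11.7); Apol10a, Apol10b and Apol11a had no thresholded peak. Of 20 GTPases of immunity 7 were open (35%, 18.1 to 56.7): Gvin1, a very large interferon-inducible GTPase, had 13.0 and 13.3, and Igtp and Irgm2, which act on the vacuoles of intracellular pathogens, shared a peak with 10.8 and 11.7. Gbp10, Gbp2b and Gbp4 had none. The 21 members of both families kept to the middle of the range, with signal values from 6.25 to 13.0 in replicate 1 and from 7.59 to 13.3 in replicate 2. Of 28 Toll-like and NOD-like receptor genes 7 were open (25%): Tlr4, the receptor for bacterial lipopolysaccharide, had 12.9 and 13.0, and the inflammasome sensors Nlrp1b and Nlrp1a had 10.8 and 12.7, and 10.4 and 11.4. Naip1, Nlrc4 and Nlrp12 had no thresholded peak.

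Zinc finger and tripartite motif genes had strong peaks. Of 58 CpG-poor genes with zinc finger symbols 17 were open (29.3%, 19.2 to 42.0), and their median mean percentile was 91.4, with median signal values of 13.6 and 14.2 and median widths of 799 and 742 bp. Zfp97, Zfp950 and Zfp677 (15.3 and 17.4) led, Zfp605 was lowest (4.84 and 6.59), and Rex2, Zfp345 and Zfp352 were without a thresholded peak. None of the 17 had a summit over 500 bp from a TSS, and 5 of them had a repeated summit sequence. Only 5 of the 17 (29.4%) had a shared distal peak within 50 kb, against 33 of 47 (70.2%) of the members in blood lists. Most zinc finger genes are not CpG-poor: 247 of those 330 genes were open, beside 58.1% of all genes that are not CpG-poor. In a grouping by RefSeq gene and protein names, made after the values were seen, 8 of 27 CpG-poor tripartite motif genes were open (29.6%, 15.9 to 48.5) with a median mean percentile of 96.5, and 5 of the 8 had a repeated summit sequence. The cluster of Trim34a, Trim5, Trim12a, Trim12c and Trim30b on chromosome 7 held 5 of these within 125 kb. In the same grouping 9 of 28 caspase, NLR and inflammasome genes were open (32.1%), among them Casp1, Casp4 and Pycard, which encode the caspases and the adaptor of inflammasomes.

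The short stem cell, megakaryocyte and erythroid lists gave 4, 3 and 1 members. Their open shares were 30.8%, 30% and 6.25%, beside the 6.39% of all CpG-poor genes. The members' signal values were at most 8.77 apart from replicate 2 of Robo4. The stem and progenitor list had 13 CpG-poor genes, 4 of them open (30.8%, 12.7 to 57.6) and 10 open in both less strict lists. Robo4, a guidance receptor of stem cells and endothelium, had 7.73 and 12.2, the widest gap between libraries among these 4. Cd93, a surface glycoprotein of early progenitors, had 7.70 and 8.28, Pdzk1ip1 had 6.79 and 7.79, and Gfi1b, a repressor that guides red cell and platelet formation, had 5.71 and 8.07. Emcn was open in replicate 2 alone and Myct1 in replicate 1 alone. Ly6a, which encodes the sorting marker Sca-1, Slamf1, Cd27, Cd48, Sult1a1 and Clca3a1 had no thresholded peak. Of 10 megakaryocyte and platelet genes 3 were open, namely Gp9 (7.23 and 8.77), F2rl2 (7.33 and 7.53) and Gp1ba (6.41 and 5.96), whose products are platelet surface receptors or their subunits; Clec1b, Gp5 and Gp6 had none. Of 16 erythroid genes 1 was open, the water channel gene Aqp1 (7.52 and 7.75), and Alas2, Car1 and Epb42 were not.

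The lymphoid and myeloid lists held a few strong peaks, and their open shares ran from 11.1% in mast cell, basophil and eosinophil genes to 23.5% in B cell genes. Of 17 CpG-poor B cell genes 4 were open: Cr2, Bank1, Fcrl1 (7.92 and 9.76) and Blk, while Blnk and Btk were not. Of 33 T and NK cell genes 7 were open, led by Cd3d (13.3 and 12.6), a chain of the T cell receptor complex, Klrd1 (11.1 and 14.8), which encodes CD94 of natural killer cells, and Cd28 (11.4 and 13.3), a costimulatory receptor whose peak lay at an internal TSS. Cd2, Cd3g and Cd4 had no thresholded peak. Of 39 neutrophil, monocyte and macrophage genes 8 were open, led by Ptafr, the receptor for platelet-activating factor (15.7 and 14.5), Cd300lf (11.1 and 15) and Clec4a2 (10.3 and 12.3), and Camp, Ccr2 and Cd68 were not; 22 of the 39 were open in both less strict lists. Of 10 dendritic cell genes 2 were open, H2-Ab1 (10 and 13.6) and H2-Aa (7.80 and 8.46), the chains of a class II molecule that presents peptides. Of 18 mast cell, basophil and eosinophil genes 2 were open, Prg3 (10.1 and 11.1) and Csf2rb (7.16 and 8.10), a shared cytokine receptor chain whose summit sequence occurs more than once in the genome. In bulk chromatin, a peak in a few cells and a weak peak in all of them cannot be told apart.

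Several families of surface and signalling molecules gave intermediate shares. C-type lectin and NK cell receptor genes were open in 10 of 50 cases (20%), paired immunoglobulin-like receptors in 9 of 44 (20.5%), CD antigens in 10 of 57 (17.5%), G protein-coupled receptors in 13 of 85 (15.3%) and cytokines with their receptors in 11 of 88 (12.5%). Among the strongest were Clec2d (10.4 and 13.0), a ligand of NK cell receptors, Cd46 (14.2 and 14.5), a complement regulator, Gpr35 (14.2 and 16.1), and Tnfsf10 (12.3 and 11.9), which encodes the death ligand TRAIL. Chemokines and their receptors had 2 of 41 open (4.88%, 1.35 to 16.1) and the SLAM, MS4A and LY6 families 2 of 31 (6.45%), both near the share of all CpG-poor genes.

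Chemosensory receptor and keratin genes were almost without peaks. Olfactory receptors had 8 of 1099 genes open (0.728%, 0.369 to 1.43), and these included Olfr646 (18.2 and 14.7), Olfr420 (12.8 and 16.4) and Olfr552 (11.5 and 12.1). Their summits were away from the TSS, 768 bp upstream at Olfr646, 576 bp downstream at Olfr420 and 186 bp upstream at Olfr552. None of 361 vomeronasal and taste receptor genes was open in both libraries, which allows a share of up to 0.831% (3 counts of the total), and none of 114 keratin and keratin-associated genes (up to 2.63%). Liver genes were open in 0 of 23 cases (up to 13.0%), with Ahsg, Alb and Ambp among them. Cytochromes P450 and related enzymes had 4 of 111 open, proteases and serpins 5 of 130, defensins 2 of 62, and unnamed gene models 53 of 1375 (3.85%). The Wilson intervals of the enzymes, proteases, defensins and liver genes hold the 6.39% of all CpG-poor genes, and solute carriers (7 of 98, 7.14%) and ion channels (2 of 29, 6.90%) stood near it. In total 164 members (38.9%) fell in a named family or list, and so did 41.6% of CpG-poor genes without a peak.

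ETS patterns were more frequent at the members' summits than in CpG-poor promoters without a peak. For each of 410 distinct summits the window of 101 bp was searched on both strands, and so were 113988 windows of that length tiling the TSS windows of CpG-poor genes without a peak. The general ETS pattern ACTTCCT stood in 19.0% of member summits (15.5 to 23.1) and 2.56% of tiles. It stood in 2.84% of 5500 tiles in the members' own TSS windows outside peaks, so the high share was at the peak and not across the promoter region. The PU.1 form GAGGAAGT, each match of which also contains the general pattern, was in 9.76% of member summits and 0.636% of tiles. RUNX (TGTGGTT) was in 7.32% against 2.12%, the NF-kB pattern (GGGA and CC separated by 4 bases) in 10% against 3.65%, and the E-box CAGCTG in 10% against 4.90%. ISRE was in 3.17% against 1.44%. The GC box GGGCGG of SP and KLF proteins was in 14.6% against 1.31%; it contains a CpG, and 52.7% of tiles hold no CpG at all against 17.6% of member summits. Some patterns were less frequent at member summits than in tiles. The GATA factor pattern AGATAA was in 2.93% against 6.87%. The TATA box, searched as TATAAA, was in 3.41% against 9.02%. The SOX pattern ACAATG was in 2.93% against 6.30%. Tiles are poorer in GC than summits (median 43.6% against 54.5%), and within windows of 40% to 55% GC the GATA ratio was 1.03 and the TATA ratio 0.98. The differences for the E-box and NF-kB shrank or turned within GC classes: from 50% to 60% GC the E-box was in 9.29% of member summits and 8.23% of tiles and NF-kB in 10.6% and 7.49%, and from 60% to 70% GC the E-box was in 11.8% and 17.4%. RUNX was in 8.41% and 1.92% from 50% to 60% GC, and in 1 of 76 summits (1.32%) against 1.58% from 60% to 70%. The difference in the general ETS pattern was present within GC classes. From 50% to 60% GC the general pattern was in 21.2% of 226 member summits, 3.21% of tiles and 8.26% of other open promoter summits. In that class the ETS core CCGGAAGT, which contains a CpG, was in 0.885% of member and 5.34% of other open promoter summits.

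**Figure D4:**
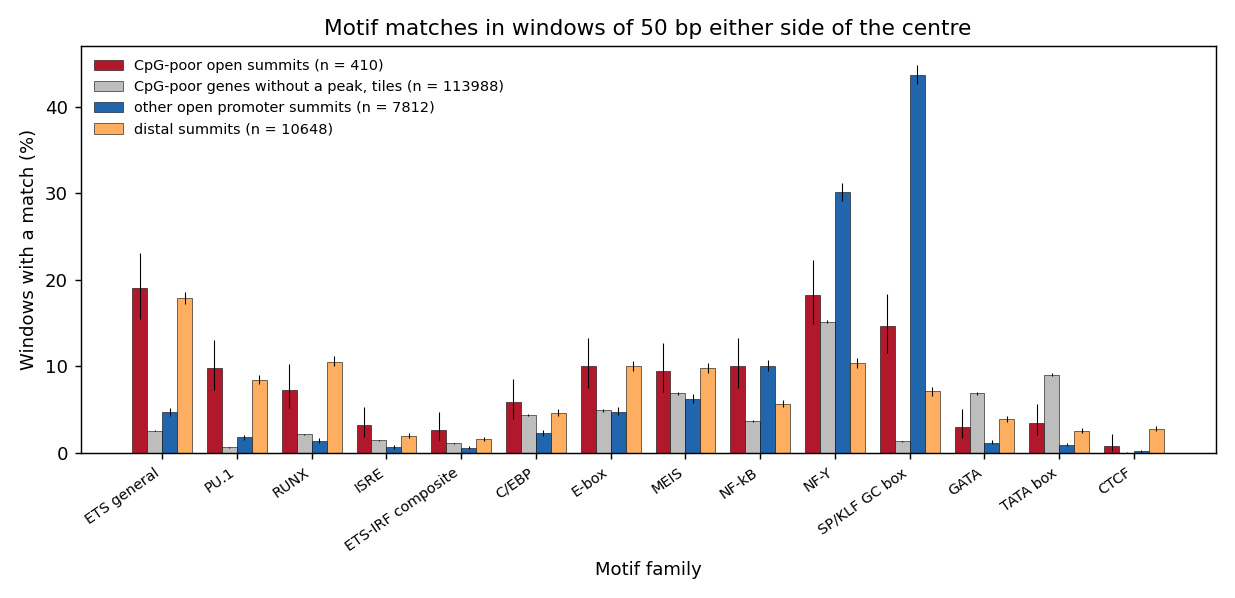
Share of 101 bp windows that hold each motif on either strand (vertical axis, %) at summits of members, in tiles of CpG-poor genes without a peak, at summits of other open promoters and at distal summits. Bars carry 95% Wilson intervals; the general ETS pattern is at 19.0% in members and 17.9% at distal summits, against 4.67% at other open promoters, whose highest bars are SP/KLF (43.7%) and NF-Y (30.1%).

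For ETS and RUNX patterns and the GC box the members' shares lay nearer to those of distal peaks than to those of other open promoters, and for NF-kB, AP-1 and CTCF they lay nearer to other open promoters. The general ETS pattern was in 17.9% of 10648 distal summits and 4.67% of 7812 summits at other open promoters. The PU.1 form was in 8.46% and 1.78%. The ETS core CCGGAAGT was in 0.498% of distal summits, 0.488% of member summits and 4.63% of other promoter summits. With any ETS pattern counted, the shares were 18.3%, 19.5% and 9.05%, so the gap to other promoters depends on the pattern chosen. RUNX was in 10.6% of distal summits and 1.41% of other promoters. The GC box was in 7.09% of distal summits and 43.7% of other promoters, with members at 14.6% between them. NF-Y (CCAAT) was in 10.4% of distal summits, 18.3% of member summits and 30.1% of other promoter summits. It was in 15.2% of tiles of CpG-poor genes without a peak. The CTCF motif was in 2.79% of distal summits, 0.732% of member summits (3 of 410) and 0.192% of other promoters. NF-kB was in 5.66%, 10% and 10.1% of these, and AP-1 in 6.13%, 3.17% and 1.68%. Base composition moved with these shares: the median GC of the window was 53.5% at distal summits, 54.5% at members and 64.4% at other promoters, and the median CpG ratio was 0.25, 0.26 and 0.79. Members were chosen for a low CpG ratio and other open genes are the remainder. The gap between them in that ratio was therefore largely set by the rule. The rule also bears on the shares of the GC box and the ETS core, which contain a CpG. The part of base composition in the order of the shares was not tested. Promoters proper ran from 250 bp before to 50 bp after the most 5′ TSS. There the general ETS pattern was in 24.6% of members, 11.3% of CpG-poor genes without a peak and 9.36% of all protein-coding genes. ISRE was in 9.005%, 4.62% and 3.55% of these, whereas NF-Y was in 35.8%, 41.6% and 39.1%.

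The members differed among themselves in which motif they held. NF-Y went with peak strength: it was in 35.3% (26.7 to 44.9) of summits in the strongest of the 4 strength groups and in 12.6%, 18.8% and 6.73% in the next groups down. The summits of 10 of the 15 strongest members held it. Zinc finger and tripartite motif genes contributed, with the box in 16 of the 24 such genes of the strongest group. The other genes of that group had it in 20 of 78 summits (25.6%), above the 12.6% of the same kind of genes in the lower groups. With repeated summit sequences left out, the strongest group had the box in 24 of 85 summits (28.2%, 19.8 to 38.6). Among other open genes NF-Y went the same way, from 45.2% in the strongest group to 17.8% in the weakest. The general ETS pattern did not follow strength, with 14.7%, 22.3%, 18.8% and 20.2% from the strongest group down and overlapping intervals.

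**Figure D5:**
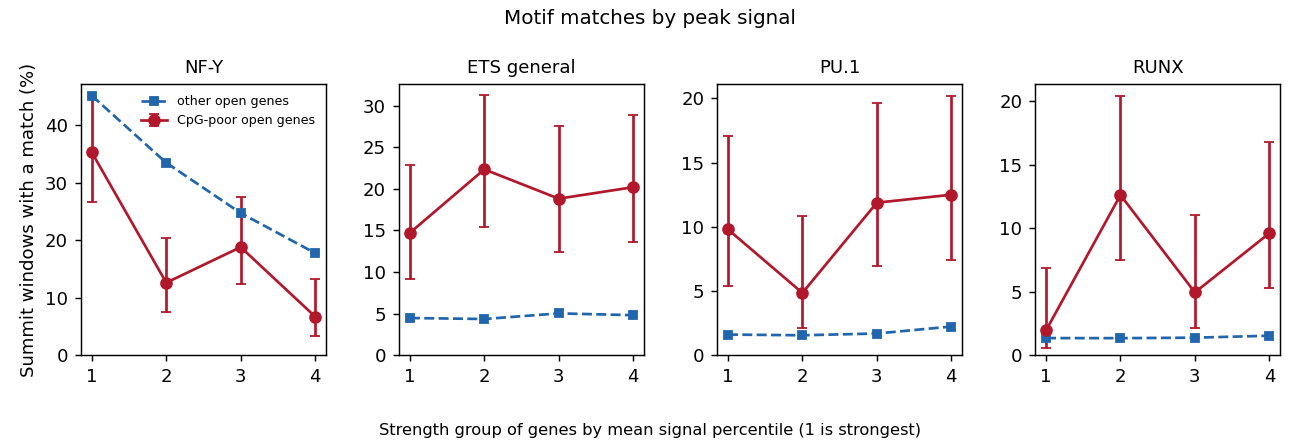
Share of summit windows with each of 4 motifs (vertical axes, %) by strength group of genes ranked on mean signal percentile (horizontal axis, 1 is strongest), for members (red, 95% Wilson intervals) and other open genes (blue). NF-Y falls from 35.3% to 6.73% over the members' groups, and the general ETS pattern stays between 14.7% and 22.3%.

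The motifs also differed between function groups. The general ETS pattern was in 10 of 17 summits of pan-leukocyte members (58.8%, 36.0 to 78.4), against 1 of 19 in the interferon and GTPase families, 4 of 17 in zinc finger genes and 60 of 324 (18.5%) in members outside all of these. Over all blood lists it was in 14 of 47, of which the pan-leukocyte list held 10, so the high share belonged to that list and not to blood genes in general. ISRE was in 5 of 19 summits of the interferon and GTPase families, 0 of 47 in blood lists (which allows up to 6.38%) and 8 of 324 elsewhere. NF-Y was in 8 of 17 zinc finger summits, 1 of 17 pan-leukocyte summits and 57 of 324 elsewhere (17.6%). Tiles of CpG-poor genes without a peak held NF-Y in 15.2% of cases. The 8 tripartite motif members held NF-Y in 5 summits and the PU.1 form in 3, which was also in 3 of 17 pan-leukocyte summits. These groups are small and their intervals wide, and a match says only that these letters occur in the window.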

How the data were processed

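The authors deposited peak lists in mm10, per the labels. Each peak carries a signal value, which the authors' peak caller assigned; no aligner, caller or normalization is given in the sources used here. The thresholded list of each library had passed the authors' irreproducible discovery rate step, and the less strict list was called from pseudoreplicates, by the names of the deposited lists. The lists hold no read counts, which leaves the depth of each library unknown; Wilson intervals (95%) cover counting of genes or windows only, and with 1 group no p-value is given.

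Intervals listed once per summit were counted once, at the strongest summit. TSSs were the 5′ ends of all transcripts of GENCODE M21 protein-coding genes, and sequence came from GRCm38.p6, the assembly that mm10 names. For a gene with several promoter peaks the strongest overlapping pair of the libraries was taken. Distal peaks touched no TSS window. Lists (22 families by symbol, 14 lists), 38 motifs and the members were chosen with earlier results of these data known. Named genes were the 15 strongest and 5 weakest members, up to 3 open and 3 unopened genes of each list, the 5 nearest the threshold on either side, and the CpG-poor stem cell genes, of which some items are not reported here; further members named in the text were chosen after their values were seen. Classes by RefSeq name, motif shares by strength group, the match to the mitochondrial genome and the counterpart genes that are not CpG-poor were added after seeing the data. No test was run. Code (Python 3.11.15, pandas 2.3.3, SciPy 1.17.1) was checked on simulated sequence and intervals. Alternatives were other lists, windows, thresholds, TSS sets, overlap rules and each library alone.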

Additional observations from a re-analysis of the deposited data

How the results depend on the processing

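The members numbered 422 and 6.39% of CpG-poor genes. They were 906 (13.7%) with the less strict lists, 720 (10.9%) with the series-level thresholded list, 802 (12.1%) with the series-level conservative list, 214 (3.24%) with the strongest 50% of intervals, 247 (4.50%) with a CpG ratio under 0.25 and 647 (8.52%) under 0.35. The share was 5.76% with 500 bp windows, 5.79% without members of repeated summit sequence, and 7.68% to 7.80% leaving out a replicate.

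The members' median signal over that of other open genes was 0.916. It was 0.774, 0.838 and 0.823 with the less strict, series-level thresholded and conservative lists, 0.873 to 0.925 leaving out a replicate, and turned to 1.01 with the strongest 50% of intervals. The width ratio of 0.892 was 0.785, 0.808, 0.796 and 0.952 in those lists and 0.854 to 0.880 leaving out a replicate. The lists of other organs, below all CpG-poor genes with the thresholded lists, stood above them at 16.9%, 15.3% and 16.9% with the less strict, series-level thresholded and conservative lists. With the strongest 50% of intervals, paired immunoglobulin-like receptors (2.27%), stem and progenitor genes (0%) and megakaryocyte genes (0%) fell below the share of all CpG-poor genes. The member to tile ratio of NF-Y, 1.21, was 0.97 in windows of 100 bp either side; in windows of 40% to 55% GC the CTCF ratio was 0 and the GATA ratio 1.03. The cause was not tested. The ETS ratio stayed between 5.84 and 8.62 over the alternatives run. Beside these, 233 function values and 66 motif ratios moved by less than their interval, and 33 and 8 moved by more in the same direction. No paired analysis was possible because the series has 1 group. Without read counts, genes near the peak threshold cannot be told from closed ones.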

Other observations

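Some members were neighbours; the share among other genes was not computed, and CpG-poor families often lie in tandem. Of the 422, 107 had another member within 100 kb, in 44 clusters. The cluster from Gimap8 to Tmem176b on chromosome 6 had 5 of its 10 CpG-poor genes open, and the Ctla2 cluster on chromosome 13 had 5 of 6. These were Ctla2a and Ctla2b, which encode inhibitors of cathepsin-like proteases, and the gene models Gm49391, Gm49392 and Gm49393. In the 3-gene Ifit1 cluster on chromosome 19 all 3 were open, though Ifit1 and Ifit1bl2 shared a peak. By chromosome the share of CpG-poor genes that were open was highest on 13 (31 of 236, 13.1%) and 1 (35 of 332, 10.5%). These genes were chosen after their values were seen.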
